A study of Mus musculus with 6 samples.

Results

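The genes described here are 8 heme synthesis enzymes, Alas1, Alas2, Alad, Uros, Urod, Cpox, Ppox and Fech, taken by their symbols from an RNA-seq table of 24054 mouse genes. They were measured in c-Kit+ cells of the spleen from 6 mice, 1 library per mouse. The 3 AML mice (acute myeloid leukaemia) had the genotype Flt3ITD/ITD,Dnmt3afl/- with MxCre and were moribund at harvest. The 3 MPN mice (myeloproliferative neoplasm) had the genotype Flt3ITD/ITD,Dnmt3afl/fl, and their titles name no Cre. All 6 mice therefore carried the Flt3 internal tandem duplication on both alleles. In MxCre mice the recombinase is driven by the interferon-inducible Mx promoter, which is active in blood cells and in other tissues. Genotype, Cre and disease differed together between the groups and cannot be told apart, and the titles do not say whether the floxed Dnmt3a alleles had been removed. Ages are not given in the labels. Red cells had been lysed and the remaining cells pulled down with magnetic beads against CD117, which is c-Kit. Replicate numbers name mice in the order of deposit and pair none.

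Heme is the iron-holding ring of haemoglobin, of cytochromes and of peroxidases such as myeloperoxidase. Its synthesis starts in the mitochondrion, where an ALA synthase joins glycine and succinyl-CoA, passes through the cytosol, and ends in the mitochondrion with the insertion of iron. Every nucleated cell runs the pathway at a low rate, and red cell precursors, which need heme for haemoglobin, run it at a far higher rate. ALA synthase has a general form, Alas1, which heme represses in liver, and an erythroid form, Alas2.

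Values are in TPM, an abundance estimate of RSEM that corrects for transcript length, so levels of different genes can be set side by side. Fold changes are given on the log2(TPM + 1) scale as AML over MPN, from a limma fit over 12223 genes with p-values adjusted over all of them. A second table, in RPKM, in which reads are divided by gene length and by the reads of the library, served as a check. The size of 1 read in the RPKM values gave relative depths of 1.29, 1.0 and 0.739 for AML replicates 1, 2 and 3, and of 1.04, 0.986 and 0.936 for MPN replicates 1, 2 and 3. MPN replicate 1 came from another sequencing run than the other 5 libraries. Dnmt3a, as a check of the labels, was at 11.5 to 13.5 TPM in AML and 29.3 to 33.9 TPM in MPN. Xist, transcribed from the inactive X chromosome, reached 186 and 194 TPM for AML replicates 1 and 2 but no more than 0.06 TPM in the other 4 mice, so females occurred in the AML group only. Nothing in the labels says how the mice were related. The limma p-values set the difference between group means against the spread within the groups, and they do not test the spread between mice.

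Of the 8 enzymes, Uros and Ppox were lower in AML, 0 were higher and 6 did not pass the threshold. Uros stood at 39.9% and Ppox at 59.1% of the MPN mean. Among all tested genes, 30.1% passed, 20.1% as higher and 10% as lower in AML, so 2 of 8 enzymes stand against a background of 1 gene in 10 in that direction. The log2 fold change was negative for 7 of the 8, all but Alas1. The median over the 8 was -0.63, and over all tested genes it was 0.13. AML and MPN mice did not overlap for the same 2 enzymes, Uros and Ppox, while 50.9% of all tested genes did not overlap, 16.1% with AML lower. The RPKM table gave the same 2 calls, where 31.3% of the tested genes passed, 10.8% as lower in AML. The enzymes differed widely in how far the 3 AML mice lay from one another, from a 1.19-fold span for Ppox to a 190-fold span for Alas2.

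**Figure D1:**
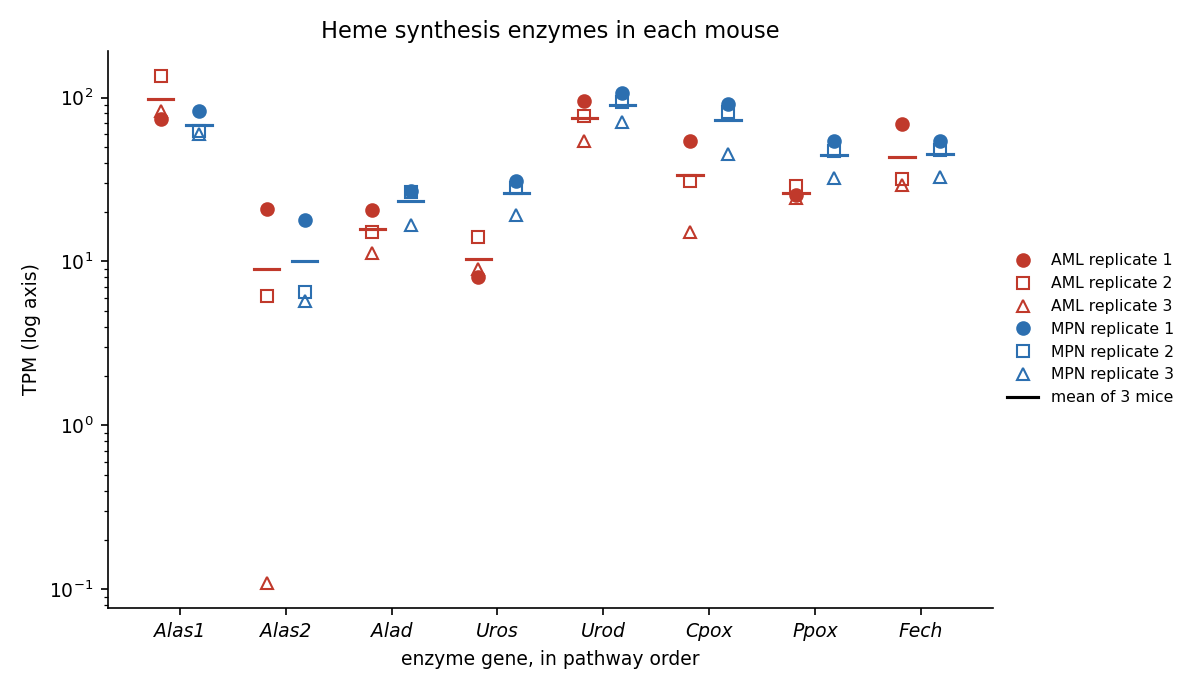
Level of each enzyme transcript in each mouse, in TPM on a log axis, with AML mice left of MPN mice, 1 symbol per mouse and a bar at the mean of 3 mice. Alas2 in AML replicate 3 lies at 0.11 TPM, far below all other points, while the AML points of Ppox lie within 24.3 to 28.9 TPM, below all MPN mice.

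Alas1, the general ALA synthase (ENSMUSG00000032786, chromosome 9 from 106233455 to 106248654 on the minus strand of GRCm38), was at 74.3, 135 and 82.5 TPM in AML replicates 1, 2 and 3, against 82.8, 62.4 and 59.5 TPM in MPN replicates 1, 2 and 3. AML replicate 2 was the highest of all 6 mice, AML replicates 1 and 3 lay within the range of the MPN mice, and the groups overlapped. Alas1 averaged 97.3 ± 33.1 TPM in AML and 68.3 ± 12.7 TPM in MPN (SD, n = 3 each). Its log2 fold change of 0.47 had a standard error of 0.24 (95% confidence interval -0.09 to 1.03, limma adjusted p = 0.172), and did not pass the threshold. The RPKM table gave 0.47, with an adjusted p of 0.181.

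Alas2, the erythroid ALA synthase (ENSMUSG00000025270, chromosome X from 150547375 to 150570638 on the plus strand), was at 20.9, 6.12 and 0.11 TPM in AML replicates 1, 2 and 3, against 17.9, 6.50 and 5.77 TPM in MPN replicates 1, 2 and 3. AML replicate 1 was above every MPN mouse, AML replicate 2 lay within the MPN range, and AML replicate 3 was nearly devoid of the transcript. The RPKM values of Alas2, by the smallest whole numbers of reads that fit them, rest on 3726, 845 and 36 reads in AML and 2409, 829 and 740 reads in MPN. Reads behind the TPM values are not known. The depth of AML replicate 3 was 0.739. Apex2, a DNA repair gene on the opposite strand, shares 311 of the 2403 exon bases of Alas2 and was at 9.08, 9.42 and 9.92 TPM in AML and 11.2, 11.6 and 10.5 TPM in MPN. Whether counting used the strand is unknown, so the 36 reads of AML replicate 3 may belong to either gene.

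The mean of Alas2 was 9.04 ± 10.7 TPM in AML and 10.1 ± 6.81 TPM in MPN (SD, n = 3 each), an SD larger than the mean in AML. Its log2 fold change of -0.82 had a standard error of 0.99 and a confidence interval from -3.15 to 1.5 (limma adjusted p = 0.550). These 3 AML mice therefore allow neither a rise nor a fall to be called, and without AML replicate 3 the log2 fold change was 0.34 (limma adjusted p = 0.682). The span between AML mice on the log2(TPM + 1) scale was 4.30, wider than that of 99.8% of tested genes, and the MPN span was 1.48, wider than 99.3%. In RPKM, Alas2 was at 6.96, 2.04 and 0.121 in AML and at 5.57, 2.03 and 1.91 in MPN, a 57.5-fold span within AML. The TPM of Alas2 was thus about 3 times its RPKM in 5 mice but below its RPKM in AML replicate 3, and the cause was not tested.

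As the first step can run on either synthase, the share of Alas2 among the TPM of Alas1 plus Alas2 was taken per mouse. It was 21.9%, 4.33% and 0.133% in AML replicates 1, 2 and 3, and 17.8%, 9.43% and 8.83% in MPN replicates 1, 2 and 3. Alas1 was the more abundant form in all 6 mice, by 3.56-fold in AML replicate 1, 22.1-fold in AML replicate 2 and 750-fold in AML replicate 3, and by 4.63-fold to 10.3-fold in the MPN mice. AML replicate 1 had a larger Alas2 share than every MPN mouse and the other AML mice a smaller one. The log2 ratio of Alas2 to Alas1 differed by -2.34 between AML and MPN, with an exact two-sided permutation p of 0.5, where 3 mice against 3 cannot go below 0.1. Without AML replicate 3 that difference was -0.20, and without AML replicate 1 it was -4.06. In RPKM, Alas2 made up 0.469% in AML replicate 3, Alas1 was there 212-fold more abundant, and the difference was -1.70 (exact permutation p = 0.5). The RPKM shares of the other 5 mice, 22.8% and 4.42% in AML and 8.81% to 17.9% in MPN, were close to those in TPM.

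**Figure D2:**
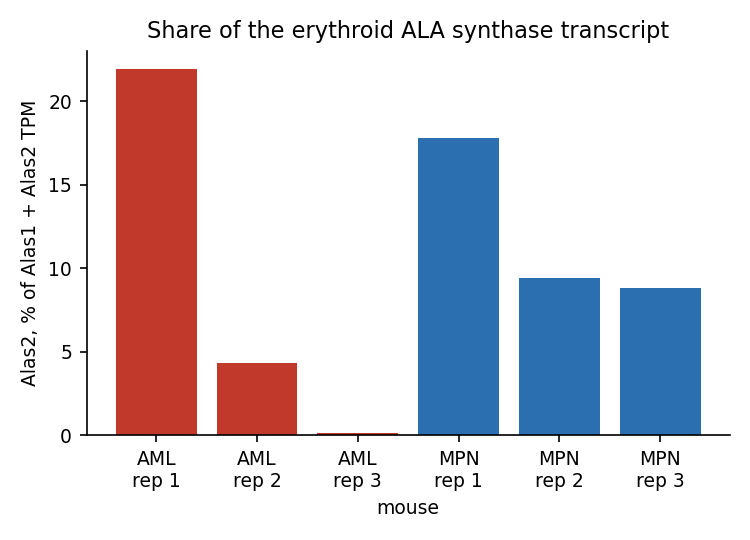
Share of the erythroid form in the ALA synthase transcripts of each mouse, as Alas2 in percent of Alas1 plus Alas2 TPM, with AML mice left and MPN mice right. AML replicate 1 is the highest bar at 21.9% and AML replicate 3 the lowest at 0.133%, and the 3 MPN bars lie between 8.83% and 17.8%.

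The region in front of the Alas2 start is shown because this gene had the widest span between AML mice. It was searched for the GATA hexamers (AGATAA or AGATAG, as well as TGATAA or TGATAG) and for the letters CACCC, both on either strand, which are the core letters bound by GATA and Krüppel-like factors. The sequence is from RefSeq on GRCm38.p6, 5′ to 3′ on the plus strand, chrX:150547167-150547374, with motif letters in capitals. It leaves out the last 42 of the 250 bases before the start, which GENCODE places in an exon.
Alas2 upstream: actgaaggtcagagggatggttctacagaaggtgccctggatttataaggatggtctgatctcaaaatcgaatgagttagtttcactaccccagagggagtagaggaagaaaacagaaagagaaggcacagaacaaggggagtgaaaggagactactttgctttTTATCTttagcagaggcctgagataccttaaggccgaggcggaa
The capitals mark TTATCT, which is AGATAA read on the other strand. Over the full 250 bases there were 1 GATA motif and 3 CACCC motifs. None of the CACCC motifs lies wholly in the printed bases, so each reaches into the 42 bases that GENCODE places in an exon. Of 32851 RefSeq windows of 250 bases, 26.5% held at least 1 such GATA motif, 52.0% at least 1 CACCC motif and 6.92% at least 3. A match is a description of the letters and shows no binding.

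Alad, which condenses ALA into porphobilinogen (ENSMUSG00000028393, chromosome 4 from 62509169 to 62519918 on the minus strand), was at 20.6, 15.2 and 11.3 TPM in AML replicates 1, 2 and 3, against 27.0, 26.6 and 16.7 TPM in MPN replicates 1, 2 and 3. AML replicates 2 and 3 were below every MPN mouse, and AML replicate 1 lay within the MPN range, so the groups overlapped. The mean was 15.7 ± 4.70 TPM in AML and 23.4 ± 5.88 TPM in MPN (SD, n = 3 each). Its log2 fold change of -0.56 ± 0.26 (SE) did not pass, with a limma adjusted p of 0.147 and a confidence interval from -1.18 to 0.06.

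Uros, the synthase that closes the tetrapyrrole ring to uroporphyrinogen III (ENSMUSG00000030979, chromosome 7 from 133686243 to 133710072 on the minus strand), was at 8.02, 14.2 and 8.97 TPM in AML replicates 1, 2 and 3, against 30.9, 28.0 and 19.1 TPM in MPN replicates 1, 2 and 3. All 3 AML mice were below all 3 MPN mice, and AML replicate 1, the highest AML mouse for 5 of the other enzymes, was the lowest of the 6 here. Uros averaged 10.4 ± 3.31 TPM in AML and 26.0 ± 6.14 TPM in MPN (SD, n = 3 each). It fell by 1.26 on the log2 scale, with an SE of 0.26 and limma adjusted p = 0.0109 (confidence interval -1.86 to -0.66).

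The fall of Uros stood in the RPKM table, at -1.01 with an adjusted p of 0.00851, and rested there on 1767, 2258 and 1131 reads in AML and 5019, 4073 and 3084 reads in MPN. Within the single sequencing run, without MPN replicate 1, it was -1.12 (limma adjusted p = 0.0418). Leaving out each mouse in turn gave -1.48 to -1.11. The call ended in a fit with a term for sex, in which AML replicate 3 alone, as the male AML mouse, stands against MPN, at -1.41 with an adjusted p of 0.0605. Bccip shares 740 bases of gene body but no exon base with Uros on the opposite strand, and it did not pass (log2 fold change 0.14, adjusted p = 0.330).

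Urod, which removes the acetate carboxyls of uroporphyrinogen III (ENSMUSG00000028684, chromosome 4 from 116989965 to 116994413 on the minus strand), was at 94.8, 76.8 and 54.1 TPM in AML replicates 1, 2 and 3, against 106, 93.6 and 70.7 TPM in MPN replicates 1, 2 and 3. AML replicate 3 was below every MPN mouse and the other AML mice were inside the MPN range. The mean was 75.2 ± 20.4 TPM in AML and 90.2 ± 18.1 TPM in MPN (SD, n = 3 each), and Urod did not pass (log2 fold change -0.28, SE 0.23, limma adjusted p = 0.390). It was the most abundant of the 8 in MPN on average and the second in AML.

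Cpox, the oxidase that makes protoporphyrinogen IX (ENSMUSG00000022742, chromosome 16 from 58670292 to 58717636 on the plus strand), was at 54.7, 31.0 and 15.1 TPM in AML replicates 1, 2 and 3, against 91.0, 82.1 and 45.04 TPM in MPN replicates 1, 2 and 3. AML replicates 2 and 3 were below all MPN mice, and AML replicate 1 was above MPN replicate 3 only. The AML mean of 33.6 ± 19.9 TPM was 46.2% of the MPN mean of 72.7 ± 24.4 TPM (SD, n = 3 each). The log2 fold change of -1.21, nearly that of Uros, had a standard error of 0.45 and did not pass (confidence interval -2.27 to -0.14, unadjusted p = 0.0312, limma adjusted p = 0.0835).

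The span of Cpox between AML mice was 1.79 on the log2 scale, or 3.63-fold in TPM, wider than that of 96.9% of tested genes. Its MPN span of 0.999, or 2.02-fold, was also wider than 96.9%. Without AML replicate 1 the log2 fold change was -1.64 and passed (limma adjusted p = 0.0216), and it passed with a term for sex at -2.14 (adjusted p = 0.0290). The 250 bases before the RefSeq start of Cpox are shown because this gene had the second widest span. They lie at chr16:58669958-58670207 on the plus strand of GRCm38.p6, with the same motif letters in capitals, and end upstream of the GENCODE start given above.
Cpox upstream: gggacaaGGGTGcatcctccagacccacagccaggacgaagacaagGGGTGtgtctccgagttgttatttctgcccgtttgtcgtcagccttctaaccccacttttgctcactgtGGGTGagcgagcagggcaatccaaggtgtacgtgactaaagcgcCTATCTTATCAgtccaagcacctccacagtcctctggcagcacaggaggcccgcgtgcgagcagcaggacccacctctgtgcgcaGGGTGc
The run CTATCTTATCA holds 2 GATA hexamers of the reverse strand that share 1 base, and GGGTG, the reverse complement of CACCC, occurs 4 times. At least 2 GATA motifs were present in 6.40% and both kinds of motif in 11.8% of the 32851 windows.

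Ppox, the mitochondrial oxidase that makes protoporphyrin IX (ENSMUSG00000062729, chromosome 1 from 171275990 to 171281186 on the minus strand), was at 25.6, 28.9 and 24.3 TPM in AML replicates 1, 2 and 3, against 54.0, 47.0 and 32.3 TPM in MPN replicates 1, 2 and 3. All AML mice were below all MPN mice, and they lay close together. Ppox averaged 26.3 ± 2.35 TPM in AML and 44.5 ± 11.1 TPM in MPN (SD, n = 3 each). It fell by 0.71 on the log2 scale, with an SE of 0.20 and limma adjusted p = 0.0324 (confidence interval -1.17 to -0.25), and by 0.81 in RPKM (adjusted p = 0.0218).

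Ppox was the one enzyme whose AML mice spanned less than its MPN mice, 0.24 against 0.72 on the log2 scale, with 24.0% of tested genes narrower in AML. Its call was close to the threshold and ended without AML replicate 1, 2 or 3, with adjusted p of 0.0620, 0.0534 and 0.0670. The same happened without MPN replicate 1 or 2 (0.102 and 0.110), with no filter (0.0518) and in the fit with the term for sex (0.138). B4galt3, a galactosyltransferase gene on the opposite strand, shares 791 of the 4515 exon bases of Ppox. B4galt3 was at 23.9, 25.2 and 26.5 TPM in AML and 41.7, 40.1 and 36.6 TPM in MPN, and also fell, by 0.63 on the log2 scale (SE 0.12, limma adjusted p = 0.00802). The libraries were stranded, but the sources used here do not give whether counting used the strand, so reads of the shared bases may belong to either gene. The 250 bases before the Ppox start, at chr1:171281187-171281436, are shown for the narrowest AML span. Read 5′ to 3′ on the minus strand (RefSeq, GRCm38.p6), they held neither motif and so have no capitals. The windows of Urod and of the first starts of Alad and Uros also held neither, with AML spans of 0.80, 0.82 and 0.75.
Ppox upstream: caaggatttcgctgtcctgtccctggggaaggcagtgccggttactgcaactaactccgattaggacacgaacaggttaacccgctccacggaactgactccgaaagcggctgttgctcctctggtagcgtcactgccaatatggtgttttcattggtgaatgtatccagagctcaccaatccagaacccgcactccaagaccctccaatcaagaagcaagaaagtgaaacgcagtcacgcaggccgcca

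Fech, the ferrochelatase that inserts iron into protoporphyrin IX (ENSMUSG00000024588, chromosome 18 from 64452914 to 64490251 on the minus strand), was at 69.1, 31.9 and 29.1 TPM in AML replicates 1, 2 and 3, against 54.6, 48.2 and 32.9 TPM in MPN replicates 1, 2 and 3. AML replicate 1 was the highest of the 6 mice and the other AML mice were the 2 lowest. Fech averaged 43.4 ± 22.3 TPM in AML and 45.2 ± 11.1 TPM in MPN (SD, n = 3 each). Its log2 fold change of -0.14 did not pass (SE 0.34, confidence interval -0.93 to 0.66, limma adjusted p = 0.777). The AML span of 1.22 was wider than that of 92.1% of tested genes.

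**Figure D3:**
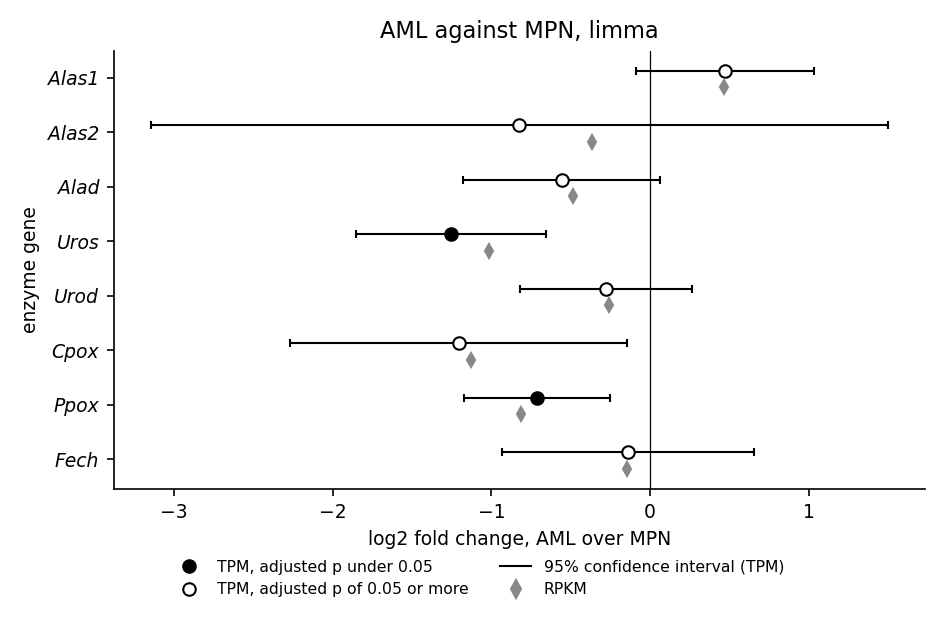
Log2 fold change of AML over MPN for each enzyme, from limma on log2(TPM + 1) as circles with 95% confidence intervals, filled where the adjusted p is under 0.05, and from RPKM as diamonds. Uros at -1.26 and Ppox at -0.71 are filled, Alas1 at 0.47 lies right of 0, and the interval of Alas2 runs from -3.15 to 1.5.

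Ordered by mean level per transcript length, the AML mice had Alas1, Urod, Fech, Cpox, Ppox, Alad, Uros and Alas2, and the MPN mice had Urod, Cpox, Alas1, Fech, Ppox, Uros, Alad and Alas2. Neighbours in these orders often lay within each other's spread, such as Alas1 and Urod in AML (97.3 ± 33.1 and 75.2 ± 20.4 TPM) and Fech and Ppox in MPN (45.2 ± 11.1 and 44.5 ± 11.1 TPM). The erythroid synthase Alas2 was the lowest of the 8 on average in both groups. The summed TPM of the 8 was 368, 339 and 225 in AML replicates 1, 2 and 3, and 465, 394 and 282 in MPN replicates 1, 2 and 3, so AML replicate 3 had the smallest sum and MPN replicate 3 lay below AML replicates 1 and 2. Alas1 made up 20.2%, 39.9% and 36.6% of that sum in AML replicates 1, 2 and 3, against 17.8%, 15.8% and 21.1% in MPN replicates 1, 2 and 3, so AML replicate 1 lay within the MPN range and the other AML mice above it.

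The AML mice differed from one another more than the MPN mice did for 7 of the 8 enzymes, which also held for 64.1% of all tested genes. The median AML span was 0.84 for the enzymes and 0.41 for all tested genes on the log2 scale, and the median MPN span was 0.69 for the enzymes and 0.31 for all tested genes. The median span of the enzymes was above that of all tested genes in both groups. For Alas2, Alad, Urod, Cpox and Fech, AML replicate 1 was highest, replicate 2 intermediate and replicate 3 lowest, an order found in 28.2% of tested genes. Alas1, Uros and Ppox did not share it, and had AML replicate 2 as the highest mouse. All 8 enzymes were highest in MPN replicate 1 and lowest in MPN replicate 3, an order found in 44.5% of tested genes. These are also the orders of the depths within each group, and MPN replicate 1 was the library of the other run. Sex also differed within AML, with replicates 1 and 2 female and replicate 3 male by Xist and Ddx3y. The part of depth, run and sex in the spans was not tested.

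Set against the mean of the MPN mice, the median over the 8 enzymes was -0.03 in AML replicate 1, -0.52 in AML replicate 2 and -0.89 in AML replicate 3, where all tested genes had medians of 0.20, 0.13 and 0.10. AML replicate 3 was below every MPN mouse for 7 enzymes, all but Alas1, which held for 26.5% of tested genes. AML replicate 2 was below every MPN mouse for 5 enzymes (26.9% of tested genes) and above them for Alas1. AML replicate 1 was below every MPN mouse for Uros and Ppox (30.2% of tested genes) and above them for Alas2 and Fech (53.1% of tested genes). The sole enzymes below the MPN mean by more than 0.5 in each AML mouse were Uros, at -1.55, -0.80 and -1.41, and Ppox, at -0.74, -0.57 and -0.81.

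**Figure D4:**
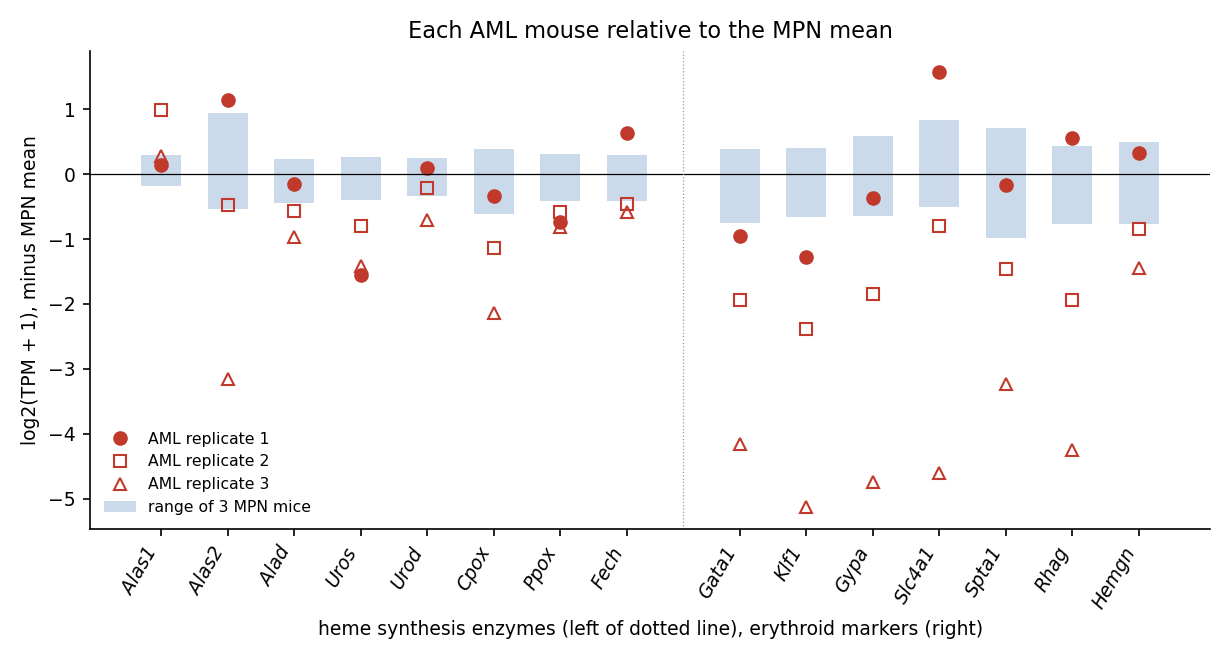
Difference of each AML mouse from the MPN mean in log2(TPM + 1), for the 8 heme synthesis enzymes left of the dotted line and 7 erythroid markers right of it, with bands for the range of the 3 MPN mice. The 3 AML mice are close together for Ppox and far apart for Alas2, and AML replicate 3 is the lowest AML mouse for each of the 7 markers.

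Red cell precursors hold most of the heme synthesis of the body, so erythroid markers were read in the same libraries. Of 8 defining markers 7 were in the table, and their summed TPM was 261, 76.3 and 16.8 in AML replicates 1, 2 and 3, and 347, 298 and 150 in MPN replicates 1, 2 and 3. None was at 0 in any mouse. Each of the 7 was highest in AML replicate 1 and lowest in AML replicate 3 among AML mice, and in AML replicate 3 each was below all MPN mice.

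Gata1, the erythroid and megakaryocyte transcription factor, was at 20.7, 9.97 and 1.36 TPM in AML and 53.8, 53.2 and 24.0 TPM in MPN. Slc4a1, the anion exchanger of the red cell membrane, was at 78.3, 14.4 and 0.10 TPM in AML and 46.8, 20.2 and 17.9 TPM in MPN. As with Alas2, AML replicate 1 was above and AML replicate 3 far below the MPN mice for Slc4a1. Of the 29 tested genes in the wider list of 30 erythroid genes, Nfe2 was higher in AML, Klf1, Epb4.2 and Tspan33 were lower and 25 did not pass, with a median log2 fold change of -1.62. The 3 of 29 that were lower are about the share of all tested genes, 10%. The summed TPM of this list was 1941, 832 and 459 in AML and 2382, 2178 and 1190 in MPN. The number called lower depended on the setting. It was 1 with no filter (7.37% of all genes) and without MPN replicate 1 or 2 (6.19% and 5.87%). With a pseudocount of 0.1 it was also 1, where 1177 of 12223 genes were lower. It was 20 without AML replicate 1 (9.83%), 19 with the term for sex (4.38%) and 23 with array weights (17.4% of all genes). The call of Klf1 ended without AML replicate 2, without any 1 MPN mouse, with no filter, with no trend and with a pseudocount of 0.1, at adjusted p of 0.0503 to 0.114. That of Epb4.2 ended with no filter, with a pseudocount of 0.1 and without MPN replicate 1 or 2 (0.0611 to 0.0927), and that of Tspan33 with the term for sex (0.0552).

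The part of erythroid cells in the levels of the enzymes was not tested, and in such bulk samples fewer cells of a type and less RNA per cell cannot be told apart. Uros and Ppox were lower in AML replicate 1, whose defining erythroid markers had a median of -0.16 relative to the MPN mean, as well as in AML replicate 3, where that median was -4.25. Markers of other cells also moved between the groups, with macrophage markers lower for 8 of 9 tested genes, neutrophil markers for 8 of 10 and lymphoid markers for 9 of 11, where 10% of all tested genes were lower. The neutrophil count was 2 without MPN replicate 1 (6.19% of all genes), without MPN replicate 3 (7.41%) or with the term for sex (4.38%). With no filter it was 4 (7.37% of all genes). The lymphoid count was 4 of the 5 genes left by a filter at 5 TPM, where 917 of 10285 genes were lower. In RPKM the lymphoid count was 5 of 6 tested genes, where 10.8% of all genes were lower. Mast cell and basophil markers were higher for 3 of 7 and megakaryocyte markers for 3 of 9, where 20.1% of all genes were higher. The megakaryocyte count was 1 with the term for sex, where 673 of 12223 genes were higher. For mast cell and basophil markers, no filter gave 3 higher and 2 lower of 10, and the term for sex 2 higher and 1 lower of 7. Over all genes, no filter gave 2370 higher and 1323 lower of 17949, and the term for sex 673 and 535 of 12223. Summed macrophage markers were at 23.3 to 37.3 TPM in AML and 116 to 214 TPM in MPN, and summed neutrophil markers at 7434 to 21630 TPM in AML and 31747 to 50435 TPM in MPN. The part of these cells was not tested.

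The genes most like each enzyme over the 6 mice were taken as the smallest root mean square difference of mean-centred log2(TPM + 1) among 10018 candidates. Alas2 had no close neighbour, with Prss34, a basophil protease, at 0.54, then Asb17os, Sptb, the erythroid spectrin beta chain, at 0.59, Slc4a1 at 0.59, and Tmem56. For Cpox they were Car2, a carbonic anhydrase abundant in red cells, at 0.12, then Samd14, Cited4, Fam132a and Mfsd2b. Car2 was at 327, 163 and 102 TPM in AML and 502, 479 and 234 TPM in MPN. Alad was nearest to Ptdss2 at 0.07 and Abcb6, a porphyrin transporter, at 0.08, followed by Tex9, Daam1 and Mier3. Urod was nearest to Armc9 at 0.05, followed by Ugcg, Usp46, Ubac1 and Slc16a10. The nearest to Fech was Mt1, a metal-binding metallothionein, at 0.09, followed by Cyth3, Fn3krp, Chac2 and Trak2. Alas1 was nearest to As3mt at 0.06, followed by Glt8d1, Gas7, Atp8b4 and Sgms2. Ppox was nearest to Tango2 at 0.07, followed by Ptger2, Ccnt2, Ubxn2b and Rb1. For Uros the nearest, Gca, was at 0.17, followed by Tmc8, Nxpe5, Pilrb2 and Purg. With 6 mice and 10018 candidates, near profiles are a description.

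Genes that supply or regulate the pathway were read from a list of 37, of which 36 were tested. Of these, 6 were higher in AML, 1 was lower and 29 did not pass, with a median log2 fold change of -0.02. Over all tested genes 20.1% were higher and 10% lower, so the list was not called more often than genes at large, and its called members are given as values of single genes. Shmt2, which makes mitochondrial glycine, averaged 179 ± 38.6 TPM in AML and 84.7 ± 12.02 TPM in MPN (SD, n = 3 each), a log2 fold change of 1.06 (limma adjusted p = 0.00535). Pgrmc1, a heme-binding partner of ferrochelatase, averaged 130 ± 56.8 TPM in AML and 41.7 ± 4.83 TPM in MPN (SD, n = 3 each), a log2 fold change of 1.54 (limma adjusted p = 0.00733). The ferredoxins Fdx1 and Fdx1l and the succinyl-CoA ligase subunits Suclg1 and Sucla2 were the other 4 that were higher, at 0.74, 0.58, 0.51 and 0.43. Iscu, the scaffold of iron-sulfur clusters, was lower, at -0.44. The call of Sucla2 ended without any 1 of the 6 mice and without the trend (adjusted p of 0.0566 to 0.0879), and that of Iscu ended without MPN replicate 2 (0.0593). With array weights, 7 were higher and 11 lower, beside 27% and 17.4% of all tested genes. With median scaling or quantile normalization, 6 were higher and 4 lower. Over all 12223 genes, median scaling gave 2181 higher and 1513 lower, and quantile normalization 2235 and 1549. Without AML replicate 1 the counts were 5 and 6, beside 2018 and 1201 of all genes. With the term for sex they were 0 and 2, beside 673 and 535 of all genes.

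On the side of heme use, 12 of 14 genes for breakdown, export and binding were tested, with 1 higher, 2 lower and 9 not passing, beside 20.1% higher and 10% lower over all genes. Without AML replicate 1 the number lower was 4 (9.83% of all genes), and with array weights 5 (17.4% of all genes). Hmox1, the inducible heme oxygenase that opens the ring, was at 9.36, 7.16 and 11.7 TPM in AML and 31.7, 27.3 and 52.6 TPM in MPN. All AML mice were below all MPN mice, and Hmox1 fell by 1.85 on the log2 scale (SE 0.27, limma adjusted p = 0.00328). Slc40a1, the iron exporter ferroportin, fell by 1.84 (SE 0.26, limma adjusted p = 0.00295), to 10.4 ± 4.11 TPM in AML against 38.5 ± 6.48 TPM in MPN (SD, n = 3 each). Both genes are also strongly expressed in macrophages that recycle iron, whose markers were lower as given above, and the part of such cells was not tested. Slc48a1, a heme transporter of endosomes, was higher by 0.68 (limma adjusted p = 0.0246), a call that ended without AML replicate 2, without any 1 MPN mouse and in the fit with the sex term, at 0.0557 to 0.321 in adjusted p. Of 18 genes listed for heme proteins outside the red cell, 16 were tested. The list also holds Alox5ap, which is not a heme protein, and Cox10, Cox15 and Hccs, which process or attach heme. None of Alox5ap, Cox10, Cox15 and Hccs passed in the comparison reported. Cyb5b and Sdhc were higher by 0.65 and 0.33, and Cybb and Epx, of the phagocyte oxidase and of eosinophils, fell by 1.98 and 3.85. The Sdhc call ended with median scaling, quantile normalization, no trend and the term for sex and without AML replicate 1 or 2 or any 1 MPN mouse, at adjusted p of 0.0651 to 0.380. The Epx call ended with no filter, with the term for sex and without AML replicate 1 or 3 or MPN replicate 1 or 2 (0.0511 to 0.0882), and those of Cyb5b and Cybb with the term for sex (0.175 and 0.0590). These shares of called genes, 2 higher and 2 lower of 16, stand beside 20.1% and 10% over all genes.

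Counts of enzymes called depended on the setting. With array weights, which give libraries unequal weight, Alad, Uros, Cpox and Ppox were lower and Alas1 was higher, where 17.4% of tested genes were called lower and 27% higher. The log2 fold changes that passed in that fit alone or in few others were -0.83 for Alad, -1.58 for Cpox and 0.74 for Alas1 (limma adjusted p = 0.00554, 0.00293 and 0.0187), and the estimation of the weights stopped before full convergence. With a term for sex the 2 enzymes called lower were Alas2 and Cpox in place of Uros and Ppox, where 4.38% of genes were called lower. With no filter Uros alone was called, against 7.37% of genes. Without AML replicate 1, Uros and Cpox were called, against 9.83% of genes. Without AML replicate 2 or 3, Uros alone was called, against 8.46% and 11.5% of genes. Without MPN replicate 1 or 2 it was again Uros alone, against 6.19% and 5.87%, and without MPN replicate 3 Uros and Ppox were called, against 7.41%.

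Of the other windows in the RefSeq table, which held 10 for 7 of the enzymes, the GATA hexamers occurred 2 times before the second annotated start of Uros and 0 times before the starts of Alas1, Alad and Urod and the first start of Uros. Of the 2 hexamers of Uros, 1 lies in bases that GENCODE gives to an exon of the gene. CACCC occurred 0 times before the starts of Urod and Uros and the first start of Alad. It occurred 1 time before each start of Alas1 and the second start of Alad. GENCODE gives 250 and 235 of the 250 bases before the first and second starts of Alas1 to an exon of the gene. No CACCC motif of Alas1 lies wholly outside those exon bases. Fech had no window. In all, 3 of the 10 windows held a GATA hexamer, near the 26.5% of all RefSeq windows.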

How the data were processed

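RNA-seq libraries of c-Kit+ splenocytes from 3 AML and 3 MPN mice were used. Per the labels' protocols, poly-A RNA went into stranded TruSeq libraries, read from both ends over 75 bases. The authors deposited TPM by gene symbol, as gene-level RSEM output per the file headers. They deposited RPKM by Ensembl gene, and their low values show that 1 read had been added to every gene. TopHat2, RSEM, Bowtie2, mm9 and mm10 are named per the submitters' processing notes, with no role, version or table, so positions are from GENCODE M21 and serve for location only. Depth came from the RPKM steps, of which 100% lay within 0.05 of whole reads. Depth is relative, and recovered reads were used for description only.

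Of 24054 genes, the 12223 that reached 1 TPM in 3 or more of the 6 libraries were tested on log2(TPM + 1) with limma 3.58.1 (R 4.3.3), using a mean-variance trend without covariates. Fold changes on this scale understate the change of genes with low values. Two-sided p-values from limma were adjusted (Benjamini-Hochberg, all tested genes) and called below 0.05. The ratio of Alas2 to Alas1 was compared by an exact permutation test. The fit was tested on simulated data.

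The 8 enzymes and the other lists were chosen with earlier results of these data known, as were the alternatives: pseudocounts of 0.1 and 5, median scaling, quantile normalization, no filter or one at 5 TPM, RPKM, no trend, array weights, a term for sex read from Xist and Ddx3y (which assumes that the lone male AML mouse varies like the others), and leaving out each mouse. The 8 enzymes are named, then the 5 genes most like each (mean of at least 5 TPM in a group, no predicted or haemoglobin genes), and from each neighbouring list the genes of smallest p, up to 4, or those needed to say what it holds. Sequences were printed for the genes with the 2 widest AML spans and the narrowest, a choice made after the values were seen. Ahsp was not matched to the table.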

Additional observations from a re-analysis of the deposited data

How the results depend on the processing

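Over all tested genes, 3678 passed in the comparison reported, 1208 with a term for sex, and 2009 to 3705 when each mouse was left out. Of the enzymes, 2 passed, both lower; 5 passed with array weights, 4 lower and 1 higher, 1 with no filter, and 1 to 2 when each mouse was left out, all lower. The log2 fold change of Alas2 was -1.81 to 0.34 when each mouse was left out, reversed without AML replicate 3. That of Fech was -0.52 to 0.085, reversed without AML replicate 2, AML replicate 3 or MPN replicate 1. The 6 other enzymes kept their direction under each of the 16 alternatives. Uros passed in 15 of the 16, and Ppox in 9. The span of Alas2 between AML mice, 4.30 on the log2(TPM + 1) scale, was 6.64 with a pseudocount of 0.1, 2.34 with a pseudocount of 5, 2.83 in RPKM, and 1.62 to 4.30 when each AML mouse was left out. The difference in the log2 ratio of Alas2 to Alas1 ranged from -4.06 to -0.20 when each mouse was left out. The causes were not tested, beyond the use of fewer mice. No paired analysis was possible because the labels number no replicates and relate no mice of the 2 groups. With 3 mice per group, a p that misses the threshold does not show equal levels, and reads behind the RPKM of Alas2 in AML replicate 3 were 36.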
